A study of Mus musculus with 8 samples.

Results

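The 42 genes described here serve interferon responses and antigen presentation by MHC class I in mouse pancreatic islets with and without insulin-degrading enzyme (Ide). They were taken as a named gene module and found by Ensembl identifier. All 42 were present among the 55487 identifiers of the deposited tables, and 41 passed the low-count filter that left 16266 tested genes. The module holds 11 genes of class I presentation, 10 genes of interferon signalling (receptors, Stat2 and the IRF transcription factors) and 21 genes that interferon induces. The comparison asked how the loss of Ide, a protease whose substrates include insulin, altered these transcripts, and whether the class I genes and the interferon-induced antiviral genes moved alike.

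RNA was sequenced from hand-picked islets of C57BL/6J mice that were 10 weeks old when they began a diet with 60% of its calories from fat, which lasted 2 weeks. The control group was Ide+/+ (5 libraries) and the other group Ide-/- (3 libraries), so the diet was shared by both and no group on standard chow was analysed here. Each library is labelled as a biological replicate, with no statement of the number of animals behind it. P-values therefore measure the spread between these samples. The genotype labels do not say which cells lack Ide, and a level in whole islets cannot separate fewer cells of a type from less RNA per cell.

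Several features of the libraries bear on what follows. The Ide+/+ libraries held 19277269 to 33371642 counts and the Ide-/- libraries 7143415 to 17445935, with the fewest in Ide-/- replicate 3. Ide itself was at 19.5 to 39.2 CPM (counts relative to the scaled library size) in Ide+/+ and at 0.167, 0.285 and 0.367 CPM in Ide-/-, as the labels say. The stated sex is female throughout, but Xist was at 69.3 CPM with no Ddx3y counts in Ide+/+ replicate 1, and the other 7 libraries held 40.3 to 71.3 CPM of the Y-linked Ddx3y and at most 0.391 CPM of Xist. Ide+/+ replicates 2 and 3 were closer to each other than any other pair of libraries of 1 genotype. Over genes with at least 1000 counts the SD of their log2 count ratio was 0.103, against 0.379 to 0.924 for the other pairs of libraries of 1 genotype. They still differed by more than sampling noise, with a median chi-square of 1.87 times its expectation, and were kept as 2 samples. Markers of acinar cells, the exocrine cells around islets, took 23.9% to 41.9% of counts in Ide+/+ and 0.708%, 1.48% and 1.53% in Ide-/-. Mitochondrial transcripts took 0.512% to 9.43% in Ide+/+ and 9.81%, 15.1% and 28.2% in Ide-/-. The islet hormone genes were abundant in both groups, with Ins2 at 27110 to 99380 CPM in Ide+/+ and 62910 to 78640 CPM in Ide-/-.

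As background, interferons are secreted proteins that bind receptor pairs on the cell surface. Ifnar1 and Ifnar2 form the receptor for type I interferons, and Ifngr1 and Ifngr2 form the receptor for interferon gamma. Kinases of the JAK family then activate STAT proteins. After type I interferon, a complex that contains Stat2 and Irf9 binds the interferon-stimulated response element (ISRE), while interferon gamma acts through the gamma-activated site (GAS). MHC class I molecules carry peptides from inside the cell to its surface for CD8 T cells. The peptides are cut by the proteasome, pumped into the endoplasmic reticulum by the transporter Tap1 and Tap2, and loaded with the help of tapasin, the product of Tapbp. In islets, raised class I on beta cells is a known feature of autoimmune diabetes.

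The start regions of 6 members are printed as examples of windows with and without a match to the ISRE core, and were picked for that after the calls were known. The first 3 genes carry such a match and were not called changed in Ide-/- islets, and the last 3 fell with no match in their window. The 6 do not stand for all members, since H2-T23 fell and holds a match. Sequences are the bases before the transcript start from RefSeq on build GRCm38.p6, read 5′ to 3′ on the gene's strand, without bases that GENCODE annotates as exon. Capitals mark matches to the ISRE core, GAAA and GAAA with any 2 bases between them, searched on both strands, and adjoining capitals are matches that overlap.
Isg15 (chr4:156200819-156201068, minus strand): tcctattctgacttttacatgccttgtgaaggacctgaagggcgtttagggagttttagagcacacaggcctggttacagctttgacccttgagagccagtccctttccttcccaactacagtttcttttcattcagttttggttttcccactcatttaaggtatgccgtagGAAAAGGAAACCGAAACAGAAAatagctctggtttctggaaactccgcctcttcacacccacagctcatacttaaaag
Oas1a (chr5:120907526-120907775, minus strand): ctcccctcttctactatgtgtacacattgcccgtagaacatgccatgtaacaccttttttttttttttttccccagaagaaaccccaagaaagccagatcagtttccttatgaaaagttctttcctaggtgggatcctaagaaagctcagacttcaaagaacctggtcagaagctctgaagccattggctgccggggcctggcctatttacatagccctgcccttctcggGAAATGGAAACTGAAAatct
Bst2 (chr8:71537473-71537722, minus strand): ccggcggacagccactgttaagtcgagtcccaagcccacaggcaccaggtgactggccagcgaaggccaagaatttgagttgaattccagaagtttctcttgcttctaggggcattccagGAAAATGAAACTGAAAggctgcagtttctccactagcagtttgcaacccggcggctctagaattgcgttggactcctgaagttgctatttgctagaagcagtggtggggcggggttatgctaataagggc
Psmb10 (chr8:105938445-105938642, minus strand): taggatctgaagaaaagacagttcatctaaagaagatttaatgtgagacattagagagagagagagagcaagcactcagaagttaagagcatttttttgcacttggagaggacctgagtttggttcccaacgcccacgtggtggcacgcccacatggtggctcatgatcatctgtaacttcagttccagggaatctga
Ifih1 (chr2:62646256-62646505, minus strand): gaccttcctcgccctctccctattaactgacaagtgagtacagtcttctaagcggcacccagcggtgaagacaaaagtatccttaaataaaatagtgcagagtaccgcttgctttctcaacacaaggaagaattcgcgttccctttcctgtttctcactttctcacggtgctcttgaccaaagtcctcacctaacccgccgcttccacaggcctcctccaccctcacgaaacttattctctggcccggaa
Ifngr2 (chr16:91546809-91547058, plus strand): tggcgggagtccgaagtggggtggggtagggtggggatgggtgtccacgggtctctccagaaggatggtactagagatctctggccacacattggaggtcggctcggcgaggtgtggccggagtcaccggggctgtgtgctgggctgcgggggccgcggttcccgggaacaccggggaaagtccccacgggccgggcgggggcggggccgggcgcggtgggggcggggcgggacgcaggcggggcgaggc

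In Isg15, the gene of a ubiquitin-like protein that is attached to other proteins, 3 overlapping matches began 78, 72 and 66 bases before the start. In Oas1a, the gene of a sensor of double-stranded RNA, the 2 matches began 20 and 14 bases before it. In Bst2, whose product tethers budding virus particles to the cell, they began 130 and 124 bases before it. RefSeq windows were found for 34 of the 42 members, those without one being Dhx58, Mx1, Nlrc5, Tap2, Usp18, Parp14, Mx2 and Ifi27. Within 250 bases before the start, the ISRE core was found in 7 of 15 interferon-induced members (46.7%), 2 of 10 signalling members (20.0%) and 2 of 9 class I members (22.2%, B2m and H2-T23). The share over all 27025 genes with a window was 3.46%. The GAS core, TTC and GAA with any 3 bases between them, also searched on both strands, was found in 2 of 15, 3 of 10 and 1 of 9, beside 8.13% of all genes. Of the 8 called members that had a window, 1 held an ISRE core (H2-T23), and of the 25 tested members that were not called, 10 did. The windows of Tap1 and Psmb9, which are transcribed away from each other, share 225 bases. A match is a description of the letters and not a measured binding site. The search allowed no mismatch and only the stated spacings, so a window without a match is not shown to lack an element.

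In Ide-/- islets 9 members were lower, 2 were higher and 30 did not pass the test (edgeR quasi-likelihood test, Benjamini-Hochberg adjusted p under 0.05 over all tested genes). These counts depended on the setting, with 10 higher and 1 lower on log2(TPM + 1) by limma, 0 and 2 with libraries scaled to secretory granule genes (granule scaling), 0 and 1 with the acinar share as a term, and 2 to 11 lower when 1 library was left out. Of all 16266 tested genes, 10.6% were lower and 10.4% higher in Ide-/-. Of the 9 lower members 5 belonged to class I presentation, where 5 of 11 fell (45.5%) and 0 rose. That number was 1 without Ide-/- replicate 2 or without replicate 3, 3 without Ide-/- replicate 1 or without Ide+/+ replicate 2, 3 or 4, 1 in TPM, 2 with granule scaling and 0 with the acinar covariate. In TPM, H2-K1 and B2m were called higher by limma. Among the 20 tested interferon-induced members 3 fell and 1 rose, and among the 10 signalling members 1 fell and 1 rose. The median log2 fold change was −0.65 in class I, −0.01 in signalling and −0.05 in the interferon-induced members, against −0.01 over all tested genes. By value, 10 of 11 class I members were below 0, compared with 12 of 20 interferon-induced and 5 of 10 signalling members. The CPM values of the groups did not overlap in 10 members that were lower and 4 that were higher in Ide-/-, where 15.6% of all tested genes were lower without overlap and 17.4% higher. Those lower members were 6 of class I, 2 of signalling and 2 interferon-induced. The difference between the role groups was not tested.

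**Figure D1:**
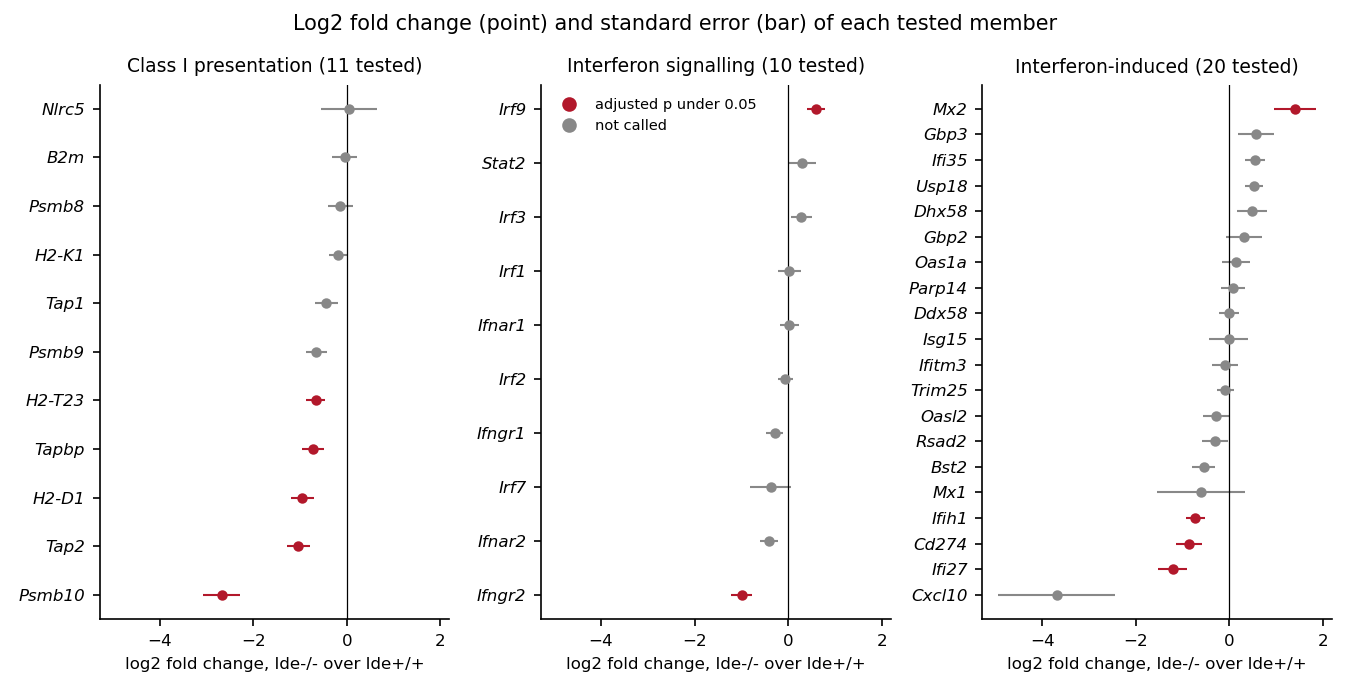
Log2 fold change (Ide-/- over Ide+/+, horizontal axis) of the 41 tested members in 3 panels by role, with the standard error as a bar and red points for adjusted p under 0.05. The class I panel leans to the left with 5 red points, while the other panels spread around 0 apart from Ifngr2 (−0.99), Cxcl10 (−3.69, not called) and a few others.

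These directions depend on the scale. CPM here carries a TMM factor, which sets the bulk of genes equal between libraries and ran from 0.405 to 2.06. TPM as deposited is a share of each library, and on log2(TPM + 1) the median of all genes was +0.44 in Ide-/-. On that scale the class I median was +0.23, below that of all genes, the interferon-induced median +0.54 and the signalling median +0.79. With libraries scaled to secretory granule genes, the medians were −0.57, 0.05 and 0.07 beside 0.08 for all genes. The class I median was thus below the interferon-induced median on each of these 3 scales. With Ide-/- replicate 3 left out of the edgeR fit, the 2 medians were −0.64 and −0.46 (21 tested), against −0.65 and −0.05 with all libraries. Of the 20 interferon-induced members compared, 4 were then above 0, against 8 with all libraries. In the fit with an acinar covariate the class I and interferon-induced medians were −0.56 and −0.54, and the median standard error of all genes was 2.26 times as large.

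The classical class I heavy chains H2-K1 and H2-D1, which bind the peptide, did not behave alike. H2-D1 (ENSMUSG00000073411, GRCm38 chromosome 17, 35262730 to 35267499) was at 248.8, 197.4, 188.4, 207.8 and 182.0 CPM in Ide+/+ replicates 1 to 5 and at 133.5, 103.5 and 81.3 CPM in Ide-/- replicates 1 to 3. Every Ide-/- library was below every Ide+/+ library. H2-D1 fell with a log2 fold change of −0.95 (SE 0.25, edgeR adjusted p = 0.0206). The call was lost without Ide-/- replicate 2 (edgeR adjusted p = 0.0955) or 3 (0.104), with granule scaling (0.0575) and with the acinar covariate (0.612), and in TPM the estimate was −0.051. H2-K1 (ENSMUSG00000061232, chromosome 17, 33996017 to 34000347) was at 110.3, 93.7, 96.7, 97.1 and 90.3 CPM in Ide+/+ and at 83.0, 77.2 and 96.8 CPM in Ide-/-. Its groups overlapped through Ide-/- replicate 3, and the log2 fold change of −0.19 (SE 0.20) was not called (edgeR adjusted p = 0.525). In TPM the pair gave the same order from another side, since H2-D1 averaged 79.0 ± 29.0 (SD, n = 5) in Ide+/+ and 76.3 ± 29.9 (SD, n = 3) in Ide-/-, while H2-K1 averaged 67.9 ± 28.2 and 121.4 ± 9.65.

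The ratio of the 2 heavy chains within a library does not depend on library scaling. Taken from TPM, it does depend on the effective length that the counting program gave each gene. For H2-K1 that length averaged 1048 bases in Ide+/+ and 896 in Ide-/-, without overlap. For H2-D1 it averaged 1846 and 1832 bases, with overlap. In TPM, H2-D1 over H2-K1 stood at 1.43, 1.18, 1.07, 1.15 and 1.12 in Ide+/+ and 0.816, 0.687 and 0.377 in Ide-/-. The groups did not overlap, and Ide-/- replicate 3 stood lowest. This ratio was chosen after its values were seen and carries no test. Both genes had fractional expected counts in all 8 libraries, so reads that match several class I genes were divided between them by the counting model, and the split between H2-K1 and H2-D1 is uncertain to that extent.

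H2-T23, a nonclassical heavy chain (the mouse gene of Qa-1) that presents signal peptides to natural killer cell receptors, was at 7.52, 12.3, 9.88, 8.54 and 11.3 CPM in Ide+/+ and at 5.93, 6.79 and 6.05 CPM in Ide-/-. The groups did not overlap, with Ide+/+ replicate 1 nearest to the Ide-/- values. H2-T23 fell by 0.67 on the log2 scale (SE 0.21, edgeR adjusted p = 0.0411). The call was lost without any 1 of 7 libraries, Ide+/+ replicate 1 being the exception. B2m, the light chain that all class I molecules share, had the highest mean TPM of the class I members (124.0 over the 8 libraries). It was at 96.9, 91.1, 87.0, 93.5 and 137.3 CPM in Ide+/+ and at 85.3, 73.0 and 136.3 CPM in Ide-/-. The groups overlapped, with 1 high library in each, and the log2 fold change was −0.04 (SE 0.26, edgeR adjusted p = 0.920).

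**Figure D2:**
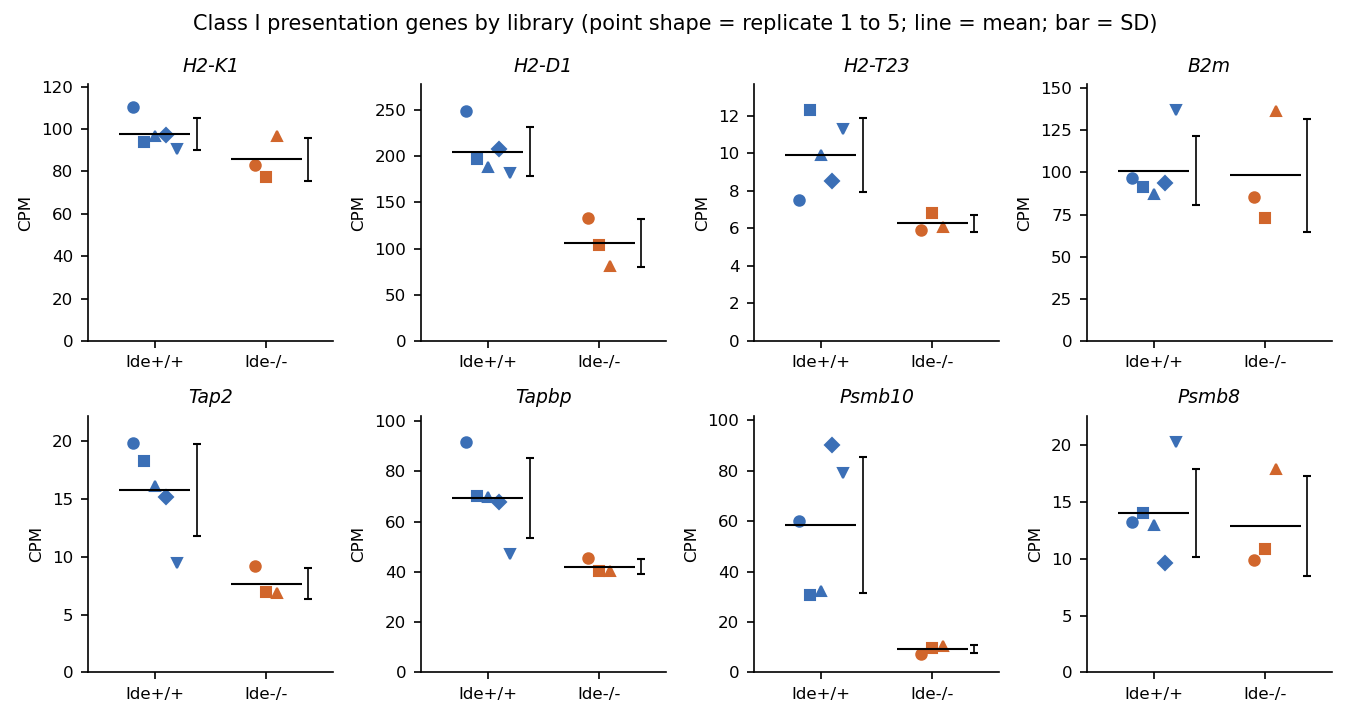
CPM (vertical axis, from 0) of 8 class I members in the 5 Ide+/+ (blue) and 3 Ide-/- (orange) libraries, with point shape for the replicate number, a line for the mean and a bar for the SD. H2-D1, H2-T23, Tap2, Tapbp and Psmb10 do not overlap between genotypes, whereas H2-K1, B2m and Psmb8 do.

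Of the genes that move and load peptides, Tap2 and Tapbp fell and Tap1 was not called. Tap2 (chromosome 17, 34203527 to 34216321) was at 19.8, 18.2, 16.1, 15.2 and 9.44 CPM in Ide+/+ and at 9.19, 6.96 and 6.88 CPM in Ide-/-. Ide+/+ replicate 5 lay just above the highest Ide-/- library, and the other Ide+/+ libraries were well above it. Tap2 fell by 1.03 on the log2 scale (SE 0.24, edgeR adjusted p = 0.0129). The call was lost without Ide-/- replicate 2 (edgeR adjusted p = 0.0676) or 3 (0.0628) and with the acinar covariate (0.340), and on log2(TPM + 1) the estimate was −0.019 (limma adjusted p = 0.970). Tapbp (chromosome 17, 33915899 to 33929292) was at 91.9, 70.2, 69.7, 67.9 and 47.1 CPM in Ide+/+ and at 45.7, 40.4 and 40.3 CPM in Ide-/-. It showed the same layout, with replicate 5 lowest in Ide+/+, and fell by 0.72 (SE 0.23, edgeR adjusted p = 0.0456), a call lost in 6 of the 8 fits that each left out 1 library, with an estimate of 0.19 in TPM. Tap1, the partner of Tap2 in the transporter, was between 3.11 and 5.52 CPM in Ide+/+ and between 2.48 and 3.43 CPM in Ide-/- (log2 fold change −0.43, edgeR adjusted p = 0.238). Tap2 and Tapbp, like H2-D1 and H2-T23, had fractional counts in all 8 libraries. Tapbp also overlaps Zbtb22 on the same strand from 33915904 to 33919325, with 381 counts of Zbtb22 over the 8 libraries. On the opposite strand, A930015D03Rik (33 counts) covers all of H2-T23, and Gm15821 (208 counts) and Gm20496 (6 counts) overlap Tap2.

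Tap1, Tap2, Psmb8 and Psmb9 lie side by side within the MHC, from position 34181987 to 34216321 of chromosome 17, and Tap2 alone of them was called. The annotated spans of Tap1 and Psmb9 overlap on opposite strands from 34187553 to 34187764, and the strand setting of the counting is not given in the sources used here. Over the 8 class I members on chromosome 17 the median log2 fold change was −0.66 with 4 lower. The 3 members elsewhere were B2m, Psmb10 and Nlrc5, of which Psmb10 fell. Nlrc5, the transactivator of class I promoters, was at 0.1002 to 0.866 CPM in Ide+/+ and at 0.285 to 1.10 CPM in Ide-/-, too low for more than a wide estimate (0.05, SE 0.60).

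Psmb10 had the largest fall of the called members. Its product is the interferon-inducible catalytic subunit that replaces the constitutive subunit Psmb7 when the proteasome becomes an immunoproteasome. Psmb10 (ENSMUSG00000031897, chromosome 8, 105935735 to 105938444, minus strand) was at 59.9, 30.7, 32.2, 90.1 and 79.3 CPM in Ide+/+ and at 7.46, 9.68 and 10.4 CPM in Ide-/-. The groups lay far apart, with Ide+/+ replicates 2 and 3 nearest to Ide-/-. The log2 fold change was −2.68 (SE 0.39, edgeR adjusted p = 0.00128), and the call held in all 8 fits that left out 1 library. It was also the 1 member called lower by limma on log2(TPM + 1), with a TPM of 80.5 ± 28.5 (SD, n = 5) against 16.5 ± 1.91 (SD, n = 3).

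Values of acinar RNA were set beside those of Psmb10. Ctrl, the gene of the acinar protease chymotrypsin-like, lies on the same strand 1872 bases downstream of Psmb10 (105932003 to 105933862). Ctrl was at 48910, 8586, 8852, 23060 and 29780 CPM in Ide+/+ and at 96.2, 219.9 and 212.1 CPM in Ide-/-. Lcat, on the same strand 1106 bases upstream of Psmb10, also fell (log2 fold change −3.15, edgeR adjusted p = 0.0118). It was at 0.960 to 6.41 CPM in Ide+/+ and at 0.163 to 0.367 CPM in Ide-/-. The antisense gene Gm16156, with 106 counts over the 8 libraries, covers the whole span of Psmb10. Within Ide+/+, replicates 2 and 3 were the lowest for Psmb10 and Ctrl and had the lowest acinar shares (23.9% and 24.2%). The order did not hold at the top. Replicate 1 had the highest Ctrl and the highest acinar share (41.9%), but its Psmb10 (59.9 CPM) was below that of replicates 4 and 5 (90.1 and 79.3 CPM). The effective length that the counting program gave Psmb10, an average over its transcripts by their estimated share, stood at 455.2, 503.0, 481.7, 445.9 and 453.7 bases in Ide+/+ and 750.5, 771.1 and 604.1 bases in Ide-/-. The counting program thus gave more weight to shorter annotated transcripts of Psmb10 in Ide+/+, and no transcript length was measured. Across the other 41 members the ratio of mean effective lengths (Ide-/- over Ide+/+) ran from 0.718 to 1.81, compared with 1.51 for Psmb10. The 1.81 was that of Mx1, with 1, 1 and 0 counts in Ide+/+ replicates 1, 4 and 5 and lengths that overlapped between the groups. Next was Cxcl9 (1.38), which was not tested and had 0 counts in the same libraries. The lengths of Psmb10 did not overlap between the groups, which was also seen in other members such as H2-K1 and Psmb9. The share of all genes with such lengths was not taken. In the fit with an acinar covariate the log2 fold change of Psmb10 was −0.02 (SE 0.57, edgeR adjusted p = 0.990). The part of acinar RNA in the fall of Psmb10 was not tested.

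**Figure D3:**
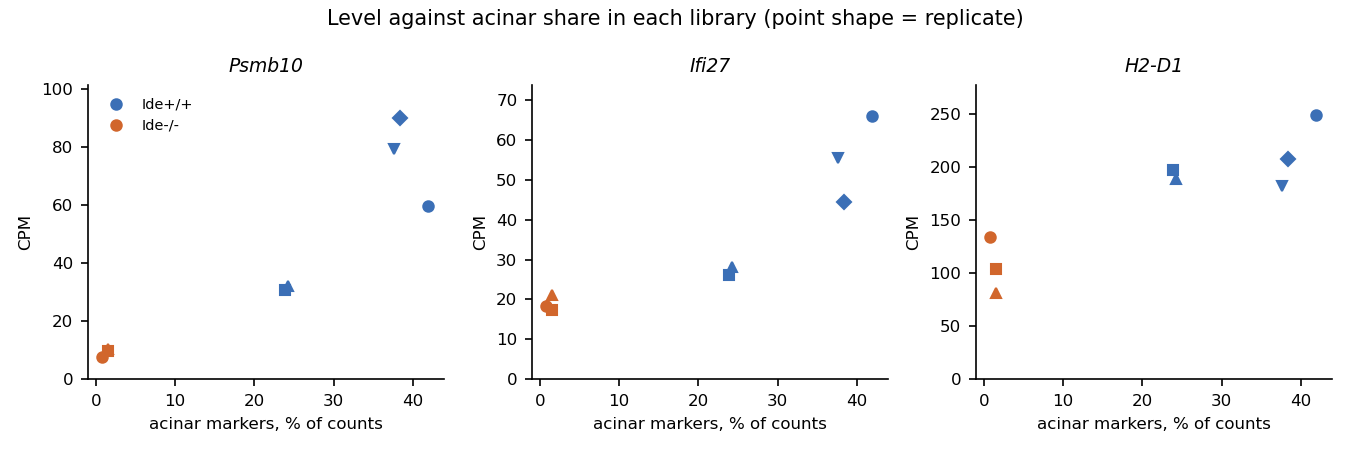
CPM of Psmb10, Ifi27 and H2-D1 (vertical axes, from 0) against the percentage of counts in 30 acinar markers (horizontal axis), 1 point per library, blue for Ide+/+ and orange for Ide-/-, with point shape for the replicate number. Ide-/- libraries sit at 0.708% to 1.53%, and within Ide+/+ the replicates at 23.9% and 24.2% have the lowest Psmb10 and Ifi27.

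The other inducible subunits were not called. Psmb8, which replaces Psmb5, was between 9.60 and 20.3 CPM in Ide+/+ and between 9.86 and 17.9 CPM in Ide-/- (log2 fold change −0.13, edgeR adjusted p = 0.749). Psmb9, which replaces Psmb6, was between 4.71 and 7.08 CPM in Ide+/+ and between 2.84 and 4.13 CPM in Ide-/-. Its groups did not overlap, but the log2 fold change of −0.65 missed the threshold (SE 0.23, edgeR adjusted p = 0.0603). Of the constitutive subunits, Psmb5 fell from 30.9 ± 7.25 to 15.02 ± 1.97 CPM (log2 fold change −1.03, edgeR adjusted p = 0.00852) and Psmb7 from 29.4 ± 9.31 to 15.3 ± 1.75 CPM (−0.93, edgeR adjusted p = 0.0215).

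Ratios of each inducible subunit to its constitutive counterpart were taken from TPM within each library and compared by a two-sided exact permutation test over the 56 splits, whose smallest p is 0.0179. Psmb8 over Psmb5 stood at 0.261, 0.444, 0.414, 0.241 and 0.566 in Ide+/+ and 0.484, 0.5002 and 1.12 in Ide-/-. These overlapped, and the mean log2 difference of 0.82 was not past the threshold (exact p = 0.143, and 0.143 adjusted over the 3 ratios). Without Ide-/- replicate 3, the highest library, it was 0.43. Psmb9 over Psmb6 stood at 0.0338, 0.0459, 0.0370, 0.0275 and 0.0312 in Ide+/+ and 0.0268, 0.0297 and 0.0272 in Ide-/- (log2 difference −0.31, exact p = 0.0893, adjusted 0.134), again with overlap. Psmb10 over Psmb7 stood at 2.98, 2.82, 2.87, 8.29 and 6.34 in Ide+/+ and 0.633, 0.822 and 1.34 in Ide-/-. Those groups did not overlap, and the log2 difference of −2.24 had the smallest p the test allows (exact p = 0.0179, adjusted 0.0536). The difference was thus positive for Psmb8 and negative for Psmb9 and Psmb10, and none of the 3 passed the adjusted threshold. In expected counts, which carry no length term, the 3 differences were of the same sign, and those of Psmb9 (−0.65) and Psmb10 (−1.65) each had an adjusted exact p of 0.0268.

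**Figure D4:**
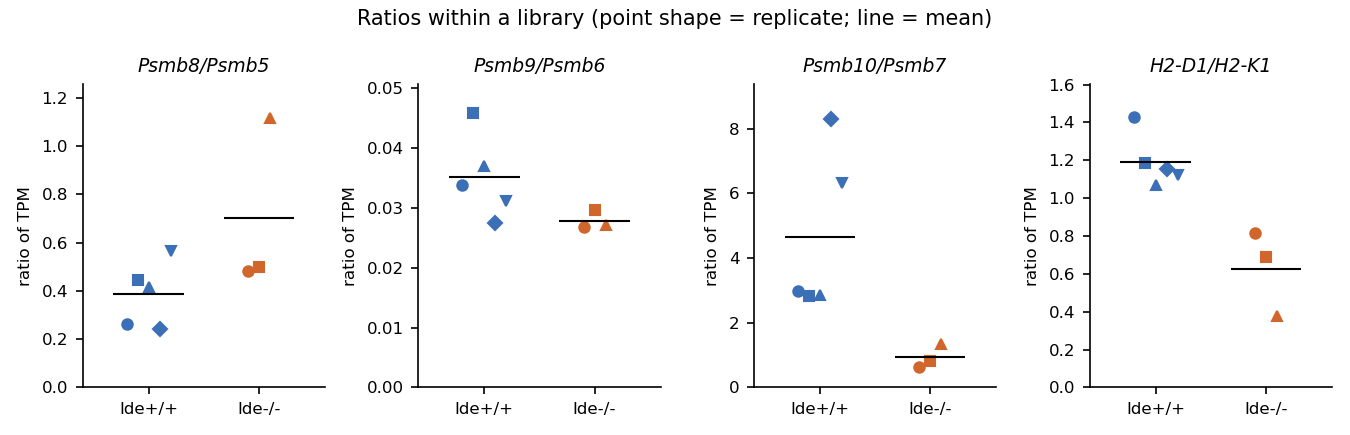
Ratio of TPM within each library (vertical axes, from 0) for each inducible over constitutive proteasome subunit and for H2-D1 over H2-K1, 1 point per library with shape for the replicate number and a line for the mean. Psmb10 over Psmb7 and H2-D1 over H2-K1 are lower in all 3 Ide-/- libraries, and Psmb8 over Psmb5 is highest in Ide-/- replicate 3 (1.12).

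Other genes of class I presentation, from a list of 19, gave 1 higher and 2 lower, the lower ones being the constitutive subunits Psmb5 and Psmb7 described above. The shares were 5.26% higher and 10.5% lower, beside 10.4% and 10.6% of all tested genes. The gene that rose was Rfx5, a DNA-binding factor at MHC promoters, from 4.00 ± 0.4998 to 7.17 ± 0.860 CPM (log2 fold change 0.83, SE 0.20, edgeR adjusted p = 0.0131). The list, which holds the chaperones Calr, Canx and Pdia3, the peptidase Erap1 and further heavy chains, had a median of −0.09.

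Among the interferon receptors, Ifngr2 fell. It encodes the signalling chain of the interferon gamma receptor and lies on chromosome 16 (91547072 to 91565623). Ifngr2 was at 12.6, 9.11, 10.2, 11.1 and 13.8 CPM in Ide+/+ and at 6.27, 6.63 and 3.94 CPM in Ide-/-. The groups did not overlap, and Ide-/- replicate 3 was lowest. The log2 fold change was −0.99 (SE 0.23, edgeR adjusted p = 0.0117), with an adjusted p of 0.0515 without Ide-/- replicate 3. In TPM the 2 groups overlapped, at 3.55 ± 1.07 (SD, n = 5) and 3.19 ± 1.077 (SD, n = 3). Its partner Ifngr1, the ligand-binding chain, was between 17.4 and 25.9 CPM in Ide+/+ and between 15.5 and 16.9 CPM in Ide-/-, without overlap but with a log2 fold change of −0.29 that was not called (edgeR adjusted p = 0.282). The type I receptor genes Ifnar1 (0.03) and Ifnar2 (−0.40) were not called.

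Irf9, the DNA-binding part of the complex with Stat2, rose. It was at 8.42, 10.1, 8.42, 7.42 and 8.15 CPM in Ide+/+ and at 12.3, 11.1 and 15.5 CPM in Ide-/-. All 3 Ide-/- libraries were above the highest Ide+/+ library. The log2 fold change was 0.60 (SE 0.18, edgeR adjusted p = 0.0394), and in TPM the means were 3.05 ± 1.52 (SD, n = 5) and 8.32 ± 1.09 (SD, n = 3). The call was lost in 6 of the 8 fits that left out 1 library, with adjusted p up to 0.163 (edgeR, without Ide-/- replicate 3). The first bases of Irf9 overlap its upstream neighbour Rnf31 on the same strand from 55603571 to 55603693 of chromosome 14. Stat2, its partner, had a log2 fold change of 0.30 (edgeR adjusted p = 0.498).

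The remaining IRF factors were not called. Irf3, which cytosolic nucleic acid sensors activate, had the highest mean TPM of the signalling members (30.5). It was at 15.7, 26.6, 25.2, 24.2 and 21.7 CPM in Ide+/+ and at 31.97, 30.6 and 20.1 CPM in Ide-/-. The groups overlapped through Ide-/- replicate 3, and the log2 fold change was 0.28 (SE 0.22, edgeR adjusted p = 0.385). Irf1 (0.03), Irf2 (−0.06) and Irf7 (−0.37), the factor that amplifies type I interferon, had adjusted p-values of 0.944, 0.836 and 0.575 by edgeR.

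Among 23 other signalling and sensing genes 20 were tested, of which 2 rose and 2 fell. These shares of 10.0% each were near those of all tested genes (10.4% higher and 10.6% lower). Cgas, the sensor of cytosolic DNA, rose from 0.695 ± 0.180 CPM in Ide+/+ (SD, n = 5) to 4.33 ± 1.01 CPM in Ide-/- (SD, n = 3), with a log2 fold change of 2.56 (SE 0.29, edgeR adjusted p = 0.000502). By library it was at 0.401, 0.789, 0.818, 0.825 and 0.644 CPM in Ide+/+ and at 3.76, 3.74 and 5.50 CPM in Ide-/-, so the groups lay far apart. Ikbke, a kinase that phosphorylates Irf3 and Irf7, rose from 3.33 ± 1.098 to 6.85 ± 0.968 CPM (1.001, edgeR adjusted p = 0.0217). The kinase Jak1, which both receptor types use, fell from 56.4 ± 20.95 to 31.1 ± 2.26 CPM (−0.86, edgeR adjusted p = 0.0432). Il10rb, a chain of the type III interferon receptor and of the interleukin 10 receptor, fell from 12.7 ± 1.83 to 6.82 ± 1.49 CPM (−0.90, edgeR adjusted p = 0.0123).

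The ligands themselves were hardly detected. None of 21 interferon genes passed the low-count filter, and 19 of them had 0 counts in all 8 libraries. Ifna13 had 1 count in Ide-/- replicate 1, and Ifnz 1 count in each of Ide+/+ replicates 2, 3 and 5. A count of 0 allows up to 3 counts, which is 0.0764 to 0.322 CPM depending on the library, for counting error only.

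Most interferon-induced antiviral genes were not called. Isg15 was between 0.701 and 1.91 CPM in Ide+/+ and between 0.732 and 2.38 CPM in Ide-/- (log2 fold change −0.02), and Oas1a between 1.503 and 2.58 CPM and between 1.79 and 3.39 CPM (0.15). The RNA sensor gene Ddx58 (RIG-I) was at −0.01, the antiviral enzyme gene Rsad2 (viperin) at −0.32, Oasl2 at −0.29 and Bst2 at −0.55, all not called. Trim25, the ubiquitin ligase that acts on RIG-I, was at −0.09 and Parp14 at 0.08. Gbp2 and Gbp3, guanylate-binding proteins that attack intracellular pathogens, were at 0.31 and 0.57. For these and the other uncalled members the estimates do not show equality, since standard errors reached 0.94 in Mx1 and 1.25 in Cxcl10.

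Mx2 was the 1 interferon-induced member that rose. Its family encodes dynamin-like antiviral GTPases, but GENCODE annotates Mx2 as a polymorphic pseudogene, so its RNA is not shown to give a working protein. The gene lies on chromosome 16 (97535308 to 97560900). Mx2 was at 0.301, 1.76, 1.07, 0.825 and 0.322 CPM in Ide+/+ and at 2.14, 2.24 and 3.30 CPM in Ide-/-. Every Ide-/- library was above every Ide+/+ library, at a low level of expression. The log2 fold change was 1.40 (SE 0.46, edgeR adjusted p = 0.0474), and the call was lost in 6 of the 8 fits that left out 1 library. Its neighbour Mx1 ranged from 0 to 1.10 CPM in Ide+/+ and from 0.163 to 1.01 CPM in Ide-/- and was not called (edgeR adjusted p = 0.676). Usp18, which removes Isg15 from proteins and dampens type I signalling, was at 8.37 to 14.5 CPM in Ide+/+ and at 15.4 to 17.4 CPM in Ide-/-. Its groups did not overlap, but its log2 fold change of 0.53 was not called (edgeR adjusted p = 0.0651). Dhx58, a regulator of RNA sensing, also had higher values without overlap, between 2.48 and 2.62 CPM in Ide-/- against 0.802 to 2.25 CPM in Ide+/+ (0.48, edgeR adjusted p = 0.301). Ifi35 was between 17.1 and 29.7 CPM in Ide+/+ and between 29.5 and 44.8 CPM in Ide-/- (0.55, edgeR adjusted p = 0.0874).

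The 3 interferon-induced members that fell have different roles. Ifih1, which encodes the sensor MDA5 for long double-stranded RNA (chromosome 2, 62595798 to 62646255), was at 12.3, 13.7, 11.8, 10.6 and 13.4 CPM in Ide+/+ and at 5.63, 8.01 and 8.89 CPM in Ide-/-. The groups did not overlap, and the log2 fold change was −0.73 (SE 0.20, edgeR adjusted p = 0.0249). Cd274, which encodes the T cell inhibitor PD-L1, was at 5.01, 3.69, 4.09, 4.65 and 2.36 CPM in Ide+/+ and at 2.26, 1.87 and 2.48 CPM in Ide-/-. Ide+/+ replicate 5 lay among the Ide-/- libraries, so the groups overlapped, with a log2 fold change of −0.86 (SE 0.28, edgeR adjusted p = 0.0456). The call of Cd274 was lost in 6 of the 8 fits that left out 1 library, and that of Ifih1 without Ide-/- replicate 1 or 2.

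Ifi27, a gene of a small mitochondrial membrane protein (chromosome 12, 103434211 to 103440239), was at 66.0, 26.1, 28.1, 44.5 and 55.5 CPM in Ide+/+ and at 18.5, 17.5 and 20.99 CPM in Ide-/-. The groups did not overlap, and within Ide+/+ replicates 2 and 3 were lowest, as for Psmb10. The log2 fold change was −1.21 (SE 0.31, edgeR adjusted p = 0.0185), and the call was lost without any 1 of the 3 Ide-/- libraries. In TPM the means were 41.2 ± 2.93 (SD, n = 5) and 44.2 ± 5.46 (SD, n = 3), while in the fit with an acinar covariate the estimate turned to 1.04 (SE 0.42, edgeR adjusted p = 0.296). Ifitm3, which blocks virus entry at membranes, had the highest mean TPM of the interferon-induced members (49.7). It was at 28.2, 25.6, 26.0, 30.5 and 45.7 CPM in Ide+/+ and at 22.7, 22.3 and 43.1 CPM in Ide-/-, with 1 high library in each group and a log2 fold change of −0.09 (SE 0.27, edgeR adjusted p = 0.844).

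The chemokine genes Cxcl9 and Cxcl10, which draw T cells to inflamed tissue, were highest in 2 of the Ide+/+ libraries. Cxcl10 was at 3.54 and 4.02 CPM in Ide+/+ replicates 2 and 3 and at 0.200, 0.0589 and 0.322 CPM in replicates 1, 4 and 5. Ide-/- libraries were at 0.111, 0.0407 and 0.367 CPM, within the range of the latter 3. Its log2 fold change of −3.69 was not called (SE 1.25, edgeR adjusted p = 0.0546) in the fit of all 8 libraries. It was called lower without Ide+/+ replicate 1 (edgeR adjusted p = 0.0301), without replicate 4 (0.0374), with the acinar covariate (0.00405) and on the 6 libraries that share replicate numbers (0.0344, and 0.0408 with the replicate block). Without Ide+/+ replicate 2 or 3, the closest pair, it did not pass the low-count filter. The span of Cxcl10 lies within that of Art3 on the opposite strand. Cxcl9 did not pass the low-count filter. It was at 0.611 and 0.604 CPM in the same 2 libraries, at 0 in the other Ide+/+ libraries, and at 0.0557, 0.163 and 0.183 CPM in Ide-/-.

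**Figure D5:**
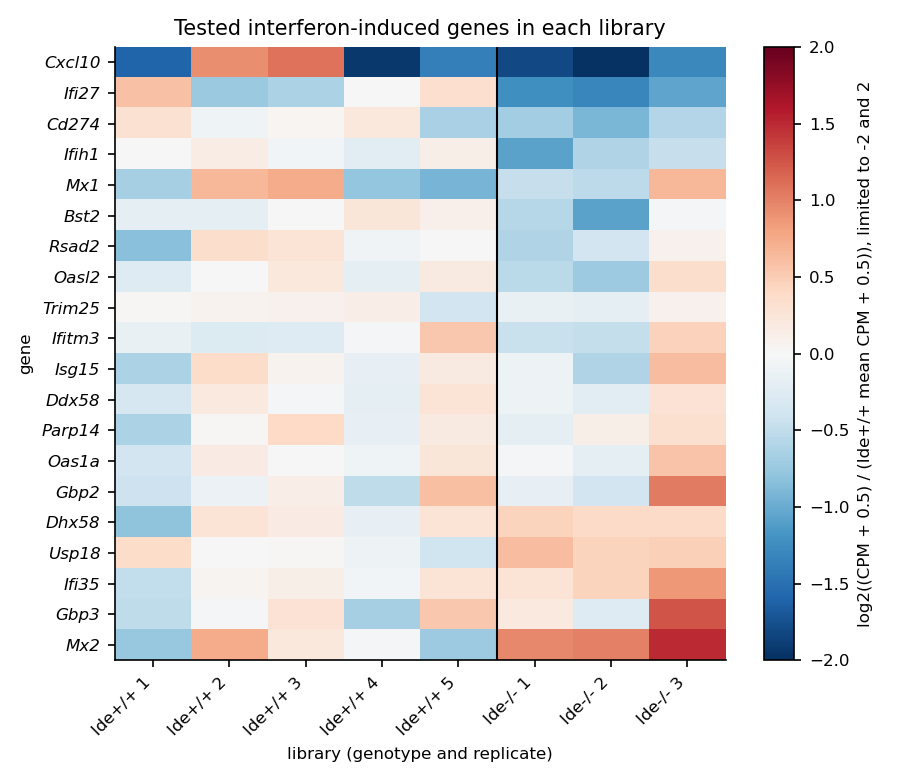
The 20 tested interferon-induced members (rows) in each of the 8 libraries (columns), coloured by the log2 ratio of CPM + 0.5 to the gene's Ide+/+ mean + 0.5, with colours limited to −2 and 2. Ide-/- replicate 3 is the highest Ide-/- library in every row but Usp18 and Dhx58, and Cxcl10 and Mx1 are highest in Ide+/+ replicates 2 and 3.

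Within the Ide-/- group the interferon-induced members ordered the libraries in a like way. Ide-/- replicate 3 was the highest of the 3 libraries in 19 of 21 interferon-induced members, in 6 of 11 class I members and in 4 of 10 signalling members, compared with 41.3% of all tested genes. Usp18 and Dhx58 were the 2 exceptions. This library was the shallowest and had the highest mitochondrial share (28.2%), and their part in the order was not tested. In Ide+/+, replicates 2 and 3 both exceeded the other 3 libraries in 5 of 21 interferon-induced members (Mx1, Mx2, Cxcl9, Cxcl10 and Rsad2), 5 of 10 signalling members and 2 of 11 class I members, beside 21.6% of all tested genes.

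The 2 arms were also set against each other within each library. The mean log2(CPM + 0.5) of the 11 class I members minus that of the 20 tested interferon-induced members stood at 2.19, 1.74, 1.61, 2.00 and 1.92 in Ide+/+ and 1.44, 1.44 and 1.07 in Ide-/-. All 3 Ide-/- libraries were below the lowest Ide+/+ library. Of the 2 arms, the class I mean ran from 4.35 to 4.49 in Ide+/+ and from 3.67 to 3.95 in Ide-/-, and the interferon-induced mean from 2.23 to 2.74 and from 2.23 to 2.88. On this scale the class I means, which include Psmb10, were apart and the interferon-induced means overlapped. Which arm moves depends on the scale, as the medians in TPM and with the acinar covariate show, and the 0.5 added after scaling keeps the contrast from being free of it. The contrast is a description of the chosen members and carries no test.

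The wider list of 53 other interferon-induced genes, of which 52 were tested, gave 2 higher and 2 lower with a median of 0.09. Gbp7, a guanylate-binding protein, rose from 14.1 ± 2.81 to 23.7 ± 6.04 CPM (log2 fold change 0.74, edgeR adjusted p = 0.0353), and Oas1b from 0.524 ± 0.188 to 1.71 ± 0.985 CPM (1.54, edgeR adjusted p = 0.0255). GENCODE annotates Oas1b as a polymorphic pseudogene, and it had only 3 to 25 counts per library in Ide+/+ and 26 to 44 in Ide-/-. Irgm1, a GTPase that regulates autophagy of pathogens, fell from 9.94 ± 2.42 to 5.199 ± 1.17 CPM (−0.92, edgeR adjusted p = 0.0245), and Lgals3bp, a secreted glycoprotein, from 99.3 ± 31.2 to 47.3 ± 18.4 CPM (−1.07, edgeR adjusted p = 0.0441). The called genes were 3.85% of the tested list in each direction, below the 10.4% and 10.6% of all tested genes.

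Markers of immune cells, which also express class I and interferon genes, moved with genotype. The summed CPM of 16 macrophage markers ran from 76.7 to 167.1 in Ide+/+ and from 33.5 to 43.9 in Ide-/-, and 10 of the 14 tested fell. Adgre1, which encodes the macrophage antigen F4/80, was at 2.42 to 5.26 CPM in Ide+/+ and at 0.285 to 0.550 CPM in Ide-/-. The summed CPM of 12 lymphocyte markers ran from 6.95 to 13.9 in Ide+/+ and from 2.45 to 3.39 in Ide-/-, and all 3 tested members fell. Of the 12, only Cd79a, Ighm and Ptprc had counts in every library. Ptprc, at 3.21 to 5.69 CPM in Ide+/+ and 1.42 to 2.11 CPM in Ide-/-, is not specific to lymphocytes. The T cell markers Cd3e, Cd3d, Cd3g, Cd4 and Cd8a were at or near 0, with at most 0.2004 CPM in any library and 0 counts of Cd8a in all 8. Of 5 dendritic cell markers, with a summed CPM of 4.01 to 9.34 in Ide+/+ and 3.95 to 5.59 in Ide-/-, 3 were tested and 2 fell. Of 10 endothelial markers, whose cells also carry class I, none was called, at a summed CPM of 94.8 to 339.6 and 231.0 to 328.5. The part of immune or acinar cells in the fall of H2-D1, H2-T23, Tap2, Tapbp, Cd274 and the other lower members was not tested.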

How the data were processed

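RNA from hand-picked islets was sequenced in 5 Ide+/+ and 3 Ide-/- samples. Per the labels' protocols, NEBNext low-input libraries were made from 100 ng of RNA (integrity number over 6.5). Per the submitters' processing notes, reads were processed with STAR 2.7.1a and RSEM 1.3.1 on GRCm38. Which annotation release and strand setting were used is not given in the sources used here. Expected counts and TPM are the values that the authors deposited. RSEM estimates expected counts by dividing reads that match several genes. TPM is corrected for length and sums to the same total per library. A loss of abundant acinar RNA raises the TPM of all other genes.

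Symbols came from GENCODE M21 (55227 of 55487 identifiers). Expected counts were rounded and tested with edgeR 4.0.16 in R 4.3.3 (TMM, default low-count filter, robust quasi-likelihood F test, genotype only), with Benjamini-Hochberg adjustment over 16266 genes and calls at 0.05. Each SE was taken from the fold change and F. CPM is scaled by TMM. Subunit ratios used exact permutation tests (Python 3.11.15). Only the edgeR fit was tested on simulated counts, with as many genes raised as lowered and no difference in acinar share between the groups. The ratios and the promoter search were not simulated. Promoter windows came from RefSeq (GRCm38.p6). Alternatives used DESeq2 1.42.0, limma 3.58.1, other scalings and left-out libraries.

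The members and lists were chosen with earlier results of these data known. Values per library are given for called members and for the member with the highest mean TPM in each role, and from other lists up to 4 called genes by smallest p are named. H2-D1 over H2-K1, Ctrl, Lcat, the effective lengths and further members beside a named one were chosen after their values were seen. The labels do not say that equal replicate numbers pair the samples.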

Additional observations from a re-analysis of the deposited data

Results flagged for a closer look

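Among 18 groups of 5 Ide+/+ values tested for a single distant sample, 2 were flagged, and chance flags about 5% of groups. In both the highest sample was Ide+/+ replicate 5. B2m was at 137.3 CPM there, with a gap to the next library of 0.803 of the group's whole range against a critical value of 0.71. Ifitm3 was at 45.7 CPM in the same library, with a gap of 0.757 of the range. Without that library the log2 fold changes were 0.0886 for B2m and 0.0845 for Ifitm3, neither called by edgeR.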

How the results depend on the processing

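Against 2 members higher and 9 lower, the number higher was 1 with no low-count filter, 0 with secretory granule scaling, 10 in TPM with limma (pseudocount 1, mean TPM of at least 0.1), 0 with the acinar covariate and 1 with Ide+/+ replicates 2 and 3 merged (added after seeing the data), and the number lower was 2 with granule scaling, 1 in TPM (Psmb10) and 1 with the covariate (Cxcl10). Class I members lower were 3 with no filter, 2 with granule scaling (Tap2 and Psmb10), 1 in TPM, 0 with the covariate and 3 merged. Signalling members lower were 0 with granule scaling, in TPM and with the covariate, and interferon-induced members lower were 0, 0 and 1. DESeq2 kept all 11 calls and added Psmb9, and leaving acinar genes out of the totals kept the same 11.

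Leaving out 1 library at a time gave 0 to 3 members higher, 2 to 11 lower, 1 to 6 class I, 0 to 1 signalling and 0 to 4 interferon-induced members lower. H2-D1 and Tap2 were not called without Ide-/- replicate 2 or 3. The log2 ratio differences ran from 0.43 to 1.03 (Psmb8/Psmb5), −0.39 to −0.21 (Psmb9/Psmb6) and −2.53 to −1.99 (Psmb10/Psmb7). In expected counts the latter 2 were −0.65 and −1.65, and past the threshold.

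Over all tested members the estimate had the other sign in TPM in 7 of 11 class I, 4 of 10 signalling and 9 of 20 interferon-induced members, and with the acinar covariate in 3, 5 and 7. Among the 15 members given by library the estimates that changed sign were, in TPM, H2-T23 0.12, Tapbp 0.19, Cd274 0.0048, Ifi27 0.0955, B2m 0.82, Ifitm3 0.76 and H2-K1 0.93; with the covariate, Mx2 −1.39, Ifi27 1.04, B2m 0.49, Ifitm3 0.70, Irf3 −0.55 and H2-K1 0.0102; with granule scaling, B2m 0.032. Without 1 library, B2m ran from −0.352 to 0.126 and Ifitm3 from −0.465 to 0.0845, above 0 without Ide+/+ replicate 5 or Ide-/- replicate 1 or 2. The cause was not tested in any case.

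The labels give replicate numbers but no shared litter, batch or day. Deviations of same-numbered libraries from their group means had correlations of 0.0852, −0.0082 and −0.117, which cannot show whether the samples were paired. With the replicate block on the 6 libraries that share numbers, 0 members were higher and 3 lower (2 class I, 0 signalling, 1 interferon-induced), and the same 6 libraries without the block gave 0, 3, 2, 0 and 1 as well. B2m was 0.055 with the block and 0.10 without it, and Ifitm3 0.081 and 0.14. Over all genes the block gave 482 higher and 648 lower, against 737 and 784 without it.

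Over all genes, 1699 were higher and 1727 lower. These became 876 and 886 with granule scaling, 5603 and 393 in TPM (93.4% of calls higher, against 49.6%), 2 and 11 with the covariate (2431 at an unadjusted p under 0.05), 993 and 1101 without Ide+/+ replicate 4, and 864 and 971, 785 and 809, and 694 and 853 without Ide-/- replicates 1, 2 and 3. Depth limits Mx1, Nlrc5, Cxcl9 and the ligands.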
